A study of Homo sapiens with 6 samples.

Results

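The 10 hypoxia genes followed here were the hypoxia-inducible factor (HIF) alpha subunits HIF1A and EPAS1, the prolyl hydroxylases EGLN1 and EGLN3, and the HIF targets CA9, CA12, ADM, NDRG1, ANKRD37 and BNIP3. They were taken by name from the deposited gene table, where all 10 were found among 57819 genes. RNA came from IMR90 ER:Ras cells, a cultured line of human lung fibroblasts whose Ras oncogene is joined to part of the estrogen receptor. All 6 libraries came from cells given 200 nM 4-hydroxytamoxifen (4OHT), which switches the fusion on, for 3 days, so cells without 4OHT were not part of the comparison. In 3 libraries the cells had a scrambled siRNA (siSCR, the control), and in the other 3 an siRNA against the senescence-induced noncoding transcript sin-lncRNA (the knockdown). The comparison asked what depletion of sin-lncRNA changed in these 4OHT-treated cells, whose state of senescence was not examined here. A single siRNA name was used for the knockdown, in columns ending in si1.3, an ending that the labels do not explain. The labels name neither a hypoxic treatment nor the promoter that drives ER:Ras, and do not say whether replicates were separate cultures, so p-values measure the spread between these libraries, which may be technical.

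In oxygenated cells, EGLN prolyl hydroxylases mark the HIF alpha proteins, VHL recognises the marked proteins, and the proteasome destroys them. When oxygen is short the alpha subunits persist, pair with ARNT and bind DNA at sites with the core ACGTG or GCGTG. HIF control of the alpha subunits is thus mainly at the protein level, which RNA counts do not measure, whereas EGLN3, CA9 and ANKRD37 are used as RNA readouts of HIF activity. EGLN1 and EGLN3 are HIF targets themselves and close a negative feedback loop. The EGLN enzymes use 2-oxoglutarate, a TCA cycle metabolite, as a substrate.

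Promoter sequences were read from RefSeq (GRCh38.p14) to show where this core lies in the genes described here. RefSeq promoters were matched for 9 of the 10 genes, and NDRG1 was not matched. Of 35116 promoter windows of 250 bases before a start, 43.2% hold ACGTG or GCGTG on either strand. A single such match lies in the window of CA12, CA9, ADM, EPAS1 and EGLN1, and in 1 of the HIF1A windows, whereas BNIP3 holds 6 matches and ANKRD37 holds 3. No match was found in the EGLN3 window, and these letters being absent there says nothing of the factor. Stretches are shown for the genes that fell, CA12 and BNIP3, for ANKRD37, which was tested and not called, and for CA9, which was not tested. Each has 100 bases on the gene's strand, and capitals mark ACGTG or GCGTG, which reads CACGT or CACGC when the match is on the other strand.
CA12 (chr15:63381997-63382096, minus strand): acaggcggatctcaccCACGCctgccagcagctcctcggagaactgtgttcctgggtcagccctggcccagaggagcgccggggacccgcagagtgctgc
BNIP3 (chr10:131981994-131982093, minus strand): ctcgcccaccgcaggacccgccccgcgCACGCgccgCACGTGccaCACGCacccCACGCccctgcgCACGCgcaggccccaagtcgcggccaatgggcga
ANKRD37 (chr4:185396651-185396750, plus strand): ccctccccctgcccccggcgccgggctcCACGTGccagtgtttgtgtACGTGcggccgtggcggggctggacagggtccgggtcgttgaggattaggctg
CA9 (chr9:35673828-35673927, plus strand): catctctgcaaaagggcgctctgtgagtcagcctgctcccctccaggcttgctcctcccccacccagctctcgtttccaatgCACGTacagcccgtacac
The CA9 match ends 14 bases before the start, and the CA12 match begins 234 bases before it. BNIP3 and ANKRD37 each hold 1 copy of CACGTG, in which ACGTG reads on both strands and which counts as 2 of their matches. CACGTG is in 6.34% of the promoter windows.

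Of the 10 genes, 8 had enough reads to be tested, 2 fell after knockdown, CA12 and BNIP3, and 0 rose (limma, Benjamini-Hochberg adjusted p under 0.05). At an unadjusted p under 0.05, 4 of the 8 passed, beside 49.0% of all genes tested. The median log2 fold change of the 8 was -0.09, beside -0.04 over all genes tested. Across all 19048 genes tested, 41.0% were called, 17.5% higher and 23.5% lower, so the share called among the 8 was below that background. Knockdown and control libraries did not overlap for 5 of the 8, 4 lower and 1 higher, beside 51.1% of all genes, 28.3% lower and 22.8% higher. At an adjusted p under 0.01, 1 of the 8 was called, CA12, beside 27.3% of all genes, and 0 of the 8 were called with a log2 change of 1 or more in size, beside 2.95%. HIF1A, EPAS1, EGLN1, ADM, NDRG1 and ANKRD37 did not pass, and EGLN3 and CA9 had too few reads.

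Library totals ran from 30271192 to 50913672 reads in genes in controls and from 22117324 to 27882280 in knockdowns, and the deepest knockdown library held fewer reads than the shallowest control. The targeted sin-lncRNA was at 3.70, 4.73 and 4.09 reads per 1000000 of effective library size (RPM) in controls and at 0.493, 0.640 and 0.534 in knockdowns. All 8 fibroblast markers were detected, with a summed level of 15189 to 16371 RPM in controls and 10692 to 11119 in knockdowns. The markers moved apart: COL1A1, COL1A2, PDGFRB, VIM and DCN fell, with log2 fold changes from -0.88 (COL1A1) to -0.30 (DCN), whereas COL3A1 (0.38), THY1 (0.19) and LUM (0.68) rose (limma, largest adjusted p among the 8 0.022, for THY1). Of the other markers, 6 epithelial genes summed to 0.352 to 0.533 RPM in controls and 0.314 to 0.463 in knockdowns, and 2 of them (KRT5 and NKX2-1) were at 0 in all libraries. The 6 immune markers summed to 0.200 to 0.298 and 0.269 to 0.641 RPM, and 4 endothelial markers to 6.99 to 7.93 and 7.87 to 8.71. The part of the depth gap and of these marker changes in the results below was not tested. In bulk RNA, fewer cells of a kind and less RNA per cell cannot be told apart.

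**Figure D1:**
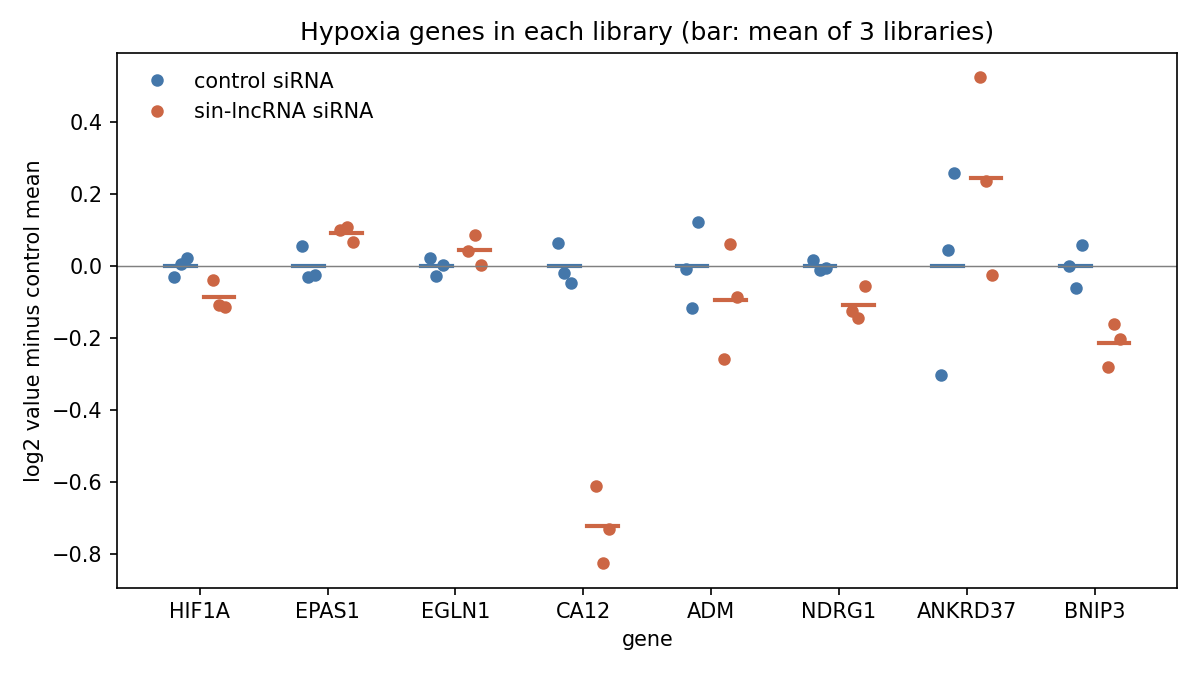
Level of the 8 tested hypoxia genes in each library, as the deposited log2 value minus the mean of the 3 control libraries (y axis) by gene (x axis). Points are libraries and bars are group means; the 3 knockdown libraries of CA12 lie far below its controls, those of BNIP3 lie below by less, and those of EGLN1, ADM and ANKRD37 overlap their controls.

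The alpha subunits came first in abundance. HIF1A encodes the widely expressed alpha subunit and lies on chromosome 14 (62162231 to 62214976 in the table's coordinates, hg19). Its level was 433, 444 and 449 RPM in controls and 430, 410 and 408 in knockdowns. Every knockdown library lay below every control, by little in the first. The log2 fold change was -0.09 with a 95% interval from -0.17 to 0.00 and did not pass (SE 0.04; limma, Benjamini-Hochberg adjusted p = 0.106). The log2 fold change was -0.044 under trimmed-mean scaling and -0.025 under quantile normalization. Over the alternatives, the adjusted p in limma ran from 0.057 to 0.636. A pseudogene row, HIF1AP1, held 210 to 523 reads per library, beside 9594 to 22592 for the gene. The antisense genes HIF1A-AS1 and HIF1A-AS2 overlap it on the other strand with at most 8 and 5 reads in any library.

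EPAS1, the HIF-2 alpha subunit, is known for its high level in endothelium and lung. It stood at 188, 177 and 178 RPM in controls and at 194, 196 and 190 in knockdowns. Here the knockdown libraries all lay above the controls. Its log2 fold change of 0.09 (95% interval 0.00 to 0.18; SE 0.04) did not pass in limma (adjusted p = 0.101). It did pass under trimmed-mean scaling (log2 fold change 0.14, adjusted p = 0.028) and without control replicate 1 (0.12, adjusted p = 0.041), and the adjusted p in limma ran from 0.028 to 0.285 over the alternatives.

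The differences of the alpha subunits were thus small and of opposite sign, and neither passed. The log2 difference EPAS1 minus HIF1A within a library was -1.20, -1.32 and -1.33 in controls and -1.15, -1.07 and -1.11 in knockdowns. It was larger in all 3 knockdowns, by 0.18 on the log2 scale, with an exact two-sided permutation p of 0.1, the smallest that 3 libraries against 3 allow. Adjusted over the 4 pairs of genes compared, p was 0.2. Per kilobase of exon, HIF1A stood at 85.8 ± 1.6 and EPAS1 at 24.8 ± 0.85 RPM per kb in controls (SD, n = 3), so HIF1A RNA was the more abundant.

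Of the prolyl hydroxylases, EGLN1 was expressed and EGLN3 was barely detected. EGLN1, the main oxygen sensor of the family, was at 44.1, 42.6 and 43.5 RPM in controls and 44.7, 46.1 and 43.5 in knockdowns, and the groups overlapped. The log2 fold change was 0.04 with a 95% interval from -0.06 to 0.15 (SE 0.05; limma adjusted p = 0.516), and with a library left out the value ran from 0.022 to 0.064. EGLN3, the family member most strongly induced by hypoxia in many cells, had 3, 2 and 2 reads in controls and 0, 0 and 1 in knockdowns. All 6 libraries were at or under 3 reads, the number that a count of 0 allows, so no fold is given. The pair EGLN3 minus EGLN1 gave an exact permutation p of 0.2 on these few reads.

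**Figure D2:**
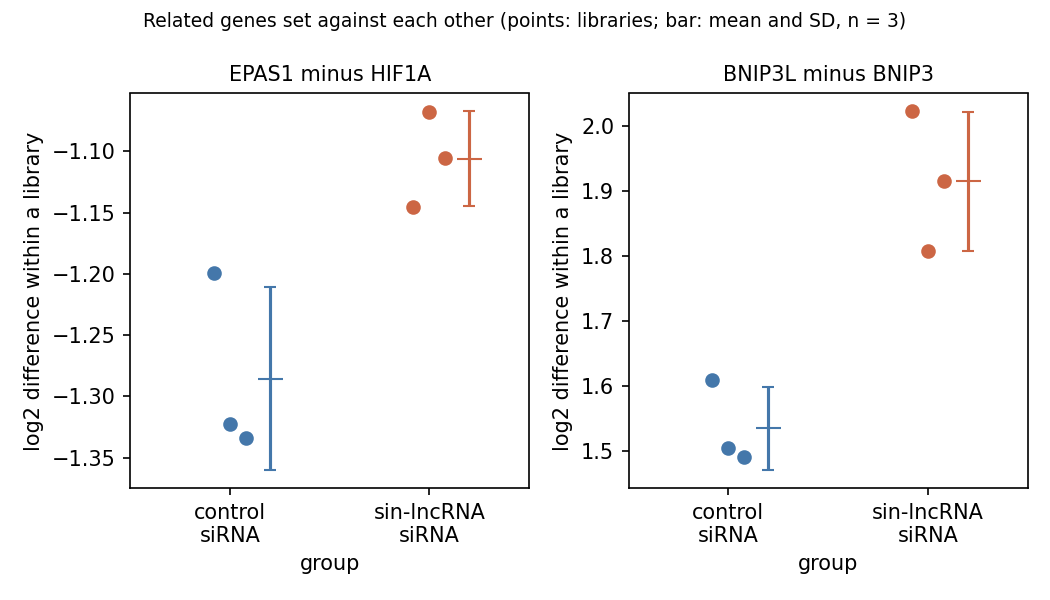
Log2 difference between related genes within each library (y axis) for control and knockdown cells (x axis), with EPAS1 minus HIF1A on the left and BNIP3L minus BNIP3 on the right. Points are libraries and bars the mean and SD of 3; both differences are larger in all 3 knockdown libraries than in any control.

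CA12 showed the largest change of the 8 tested genes. It encodes a carbonic anhydrase held in the cell membrane with its active site outside, where it converts carbon dioxide to bicarbonate and protons, and in many tumours it is induced with CA9. The gene lies on chromosome 15 (63613577 to 63674360, minus strand). Control libraries had 28.8, 27.1 and 26.6 RPM and knockdown libraries 18.0, 15.5 and 16.6. All 3 knockdowns were below all 3 controls, with a wide gap between the groups. CA12 fell to 60.6% of control, a log2 fold change of -0.72 (95% interval -0.88 to -0.57; SE 0.07; limma, Benjamini-Hochberg adjusted p = 1.8e-05). A change at least as large in size was seen in 7.62% of all genes tested. Control libraries held 814 to 1340 reads of the gene and knockdown libraries 363 to 465, and no other gene of the table overlaps it.

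CA9, the related tumour-type carbonic anhydrase whose promoter match stands close to the start (above), was barely detected. It had 3, 8 and 9 reads in controls and 11, 3 and 7 in knockdowns, or 0.0881 to 0.266 and 0.128 to 0.493 RPM. These ranges overlap, and the gene was below the filter and not tested. CA9 also overlaps ARHGEF39 on the opposite strand. The log2 difference CA12 minus CA9 overlapped between the groups (exact two-sided permutation p = 0.2). Among 13 further carbonic anhydrases, 3 were tested and all 3 changed, beside 41.0% of all genes tested: CA13, a cytosolic form, rose from 2.54 ± 0.31 to 4.77 ± 0.12 RPM (SD, n = 3), mitochondrial CA5B rose from 6.86 ± 0.93 to 10.05 ± 0.28, and CA11, an acatalytic relative, fell from 6.19 ± 0.94 to 3.64 ± 0.44. Their log2 fold changes were 0.92, 0.56 and -0.76 (limma adjusted p = 0.00020, 0.0014 and 0.0012). The pseudogene CA5BP1 overlaps CA5B on its own strand, which leaves the CA5B reads uncertain.

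BNIP3 encodes a protein of the outer mitochondrial membrane that promotes mitophagy and cell death and is a long-known HIF-1 target. Its level was 39.5, 37.9 and 41.2 RPM in controls and 32.5, 35.3 and 34.3 in knockdowns. The 3 knockdowns lay below the 3 controls. BNIP3 fell by 0.21 on the log2 scale (95% interval -0.34 to -0.09; SE 0.06; limma adjusted p = 0.011), to 86.2% of control. Without control replicate 3, the deepest library, the log2 fold change was -0.18 and no longer passed (limma adjusted p = 0.064; range over the alternatives 0.0087 to 0.064).

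The reads of BNIP3 are uncertain, because a pseudogene row had counts much like its own. The pseudogene BNIP3P1, on chromosome 14 (28733596 to 28735180), held 38.2, 35.0 and 38.3 RPM in controls and 32.0, 31.8 and 35.7 in knockdowns, about as much as the gene itself. BNIP3P1 alone did not pass (log2 fold change -0.16; limma adjusted p = 0.062), and its groups overlapped. With the reads of BNIP3 and its pseudogenes added together, the log2 fold change was -0.19 (limma adjusted p = 0.014). Its paralogue BNIP3L, a mitophagy receptor, went the other way, from 114.6 ± 6.6 to 128.4 ± 4.3 RPM (SD, n = 3; log2 fold change 0.17; limma adjusted p = 0.025). That call was lost without control replicates 2 or 3 or knockdown replicates 1 or 3, with log2 fold changes from 0.12 to 0.17. BNIP3L minus BNIP3 was 1.61, 1.51 and 1.49 in controls and 2.02, 1.81 and 1.91 in knockdowns on the log2 scale. The difference was larger in all 3 knockdowns, by 0.38 (exact two-sided permutation p = 0.1, the smallest possible, and 0.2 adjusted over 4 pairs).

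NDRG1, a stress-responsive gene induced by hypoxia and linked to growth arrest and differentiation, was at 141, 138 and 138 RPM in controls and 127, 126 and 134 in knockdowns. The knockdowns were lower in 3 of 3 libraries, yet the log2 fold change of -0.11 (95% interval -0.20 to -0.01; SE 0.04) did not pass in limma (adjusted p = 0.065). It passed once reads were drawn down to the size of the smallest library (-0.13; limma adjusted p = 0.037; range over the alternatives 0.037 to 0.243). Of its relatives, NDRG3 fell from 52.8 ± 1.4 to 47.4 ± 2.7 RPM and NDRG4 rose from 35.3 ± 2.6 to 39.9 ± 0.85 (SD, n = 3), with log2 fold changes of -0.16 and 0.18 (limma adjusted p = 0.042 and 0.038). Neither call was kept without control replicate 2, control replicate 3, knockdown replicate 2 or knockdown replicate 3. NDRG4 was also not called without knockdown replicate 1, nor NDRG3 without control replicate 1. NDRG2 had at most 4 reads in any library.

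ADM encodes adrenomedullin, a vasodilator peptide secreted under hypoxia. Controls had 30.5, 28.3 and 33.4 RPM and knockdowns 25.6, 32.0 and 28.9, so the groups overlapped. The log2 fold change was -0.09 with a 95% interval from -0.28 to 0.10 (SE 0.09; limma adjusted p = 0.421). Leaving out knockdown replicate 1 gave -0.01 and leaving out knockdown replicate 2 gave -0.17, the ends of the range over libraries. Its receptor is CALCRL paired with a RAMP protein. CALCRL was at 5.61 ± 0.38 RPM in controls and 5.03 ± 0.82 in knockdowns (SD, n = 3; limma adjusted p = 0.324). RAMP1, which with CALCRL forms mainly a receptor for the related peptide CGRP, rose from 4.10 ± 0.99 to 8.19 ± 1.96 RPM (log2 fold change 1.00, SE 0.19; limma adjusted p = 0.0018). RAMP2 and RAMP3, the partners that give an adrenomedullin receptor, had at most 5 and 0 reads in any library. ADM2, a related peptide, was at 5.77 ± 0.19 and 5.84 ± 0.79 RPM (limma adjusted p = 0.945).

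ANKRD37, a small ankyrin repeat protein often used in hypoxia signatures, was weakly expressed. It had 0.705, 0.899 and 1.05 RPM in controls and 1.26, 1.02 and 0.855 in knockdowns, on 24 to 53 reads per library. The groups overlapped, and the log2 fold change of 0.25 had a wide 95% interval, from -0.26 to 0.75 (SE 0.23; limma adjusted p = 0.428). Without control replicate 1 it was 0.093 and without knockdown replicate 3 it was 0.38, the ends of the range over libraries. UFSP2 overlaps the gene on the opposite strand with 371 to 1041 reads per library, so part of these reads is uncertain.

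On a scale of RPM per kb of exon, the order of control levels was HIF1A (85.8), EPAS1 (24.8), NDRG1 (14.1), ADM (11.3), BNIP3 (7.42), EGLN1 (5.98), CA12 (3.76), ANKRD37 (0.343), CA9 (0.106) and EGLN3 (0.0088). Neighbours in this order down to CA12 were further apart than the SD of either (from 0.10 to 1.62 RPM per kb), and CA9 and EGLN3 rest on under 10 reads per control library. The SD does not cover the uncertain reads of BNIP3, whose pseudogene BNIP3P1 held about as many. The place of BNIP3 in this order is therefore uncertain. The order of the means was the same in knockdowns, where BNIP3 (6.39 ± 0.27) and EGLN1 (6.16 ± 0.18) differed by less than the SD of BNIP3.

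**Figure D3:**
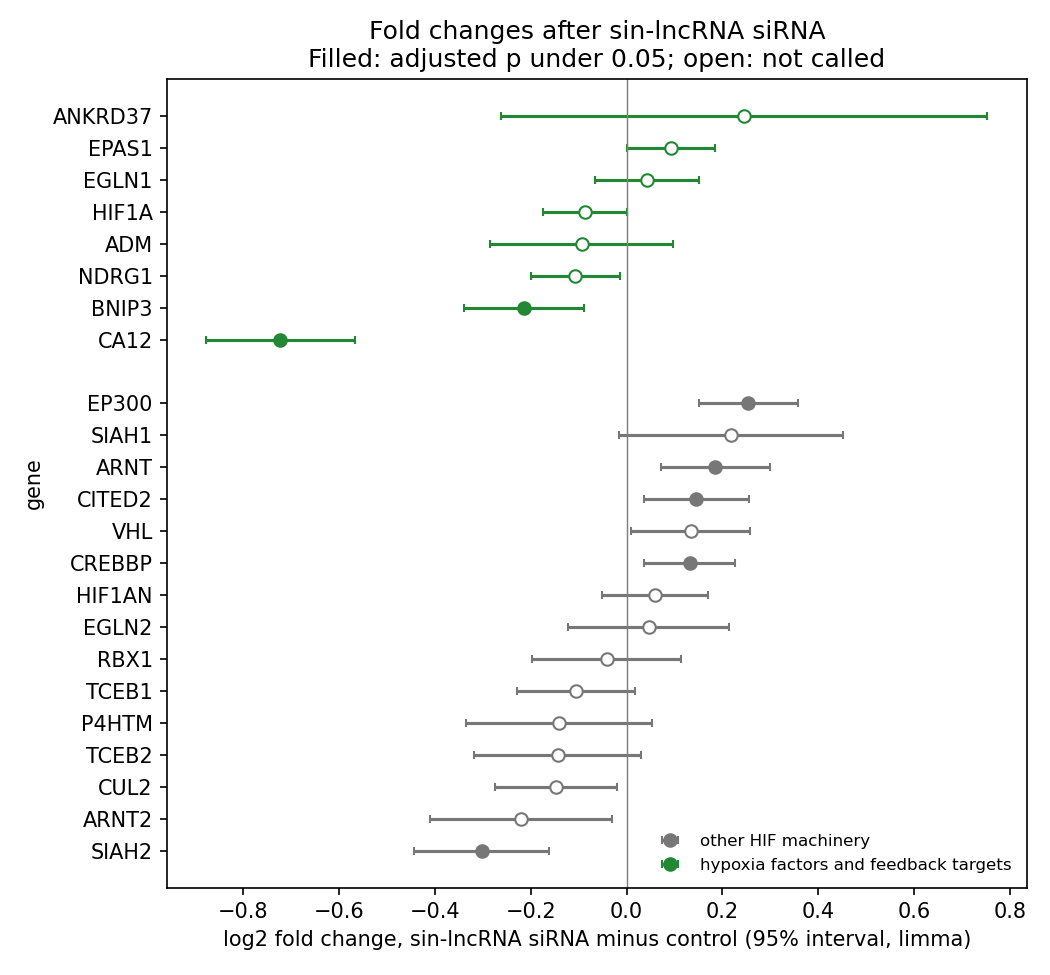
Log2 fold change of knockdown against control with its 95% interval in limma (x axis) for the 8 tested hypoxia genes and 15 other genes of the HIF machinery (y axis). Filled points passed an adjusted p of 0.05 and open points did not; CA12 at -0.72 lies apart from the others, and the machinery genes lie between -0.30 and 0.25.

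The rest of the HIF machinery changed by small amounts. Of 16 listed genes 15 were tested, 4 rose and 1 fell, with a median log2 fold change of 0.05. The 5 called of 15 stand beside 41.0% of all genes, 17.5% higher and 23.5% lower. EP300 and CREBBP, the acetyltransferase coactivators that HIF recruits, went from 110.0 ± 5.0 to 131.0 ± 3.2 RPM and from 81.8 ± 1.95 to 89.6 ± 1.1 (SD, n = 3). Their log2 fold changes were 0.25 and 0.13 (limma adjusted p = 0.0014 and 0.031). ARNT, the beta subunit, rose from 45.3 ± 1.8 to 51.5 ± 1.3 RPM (log2 fold change 0.19; limma adjusted p = 0.014), and CITED2, which competes with HIF for these coactivators, rose from 46.9 ± 1.4 to 51.8 ± 1.6 (0.15; adjusted p in limma 0.037). SIAH2, a ubiquitin ligase for the EGLN proteins, fell from 19.9 ± 0.44 to 16.2 ± 0.70 RPM (-0.30; limma adjusted p = 0.0031). Only EP300 and SIAH2 of these 5 kept their call whichever library was left out. The count of calls was 2 without control replicate 3 or without knockdown replicate 3.

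The other 10 machinery genes tested did not pass. VHL, which recognises hydroxylated HIF alpha, was at 37.5 ± 1.3 RPM in controls and 41.1 ± 2.1 in knockdowns (log2 fold change 0.13; limma adjusted p = 0.081). It passed with library totals, trimmed-mean scaling and quantile normalization (adjusted p in limma 0.047, 0.029 and 0.025). HIF1AN, the asparagine hydroxylase that blocks coactivator binding, had a log2 fold change of 0.06, and EGLN2 of 0.05. For the other parts of the VHL ubiquitin ligase the log2 fold changes were -0.15 for CUL2, -0.10 for TCEB1, -0.14 for TCEB2 and -0.04 for RBX1. ARNT2 was at -0.22, P4HTM at -0.14 and SIAH1 at 0.22. CUL2 passed without control replicate 1 or knockdown replicate 1, P4HTM without control replicate 2, TCEB1 without knockdown replicate 2, and TCEB2 without control replicate 2. HIF3A had at most 1 read in any library. TCEB2, SIAH1 and HIF1AN overlap the expressed genes SRRM2, LONP2 and NDUFB8 on the other strand, and RBX1 and P4HTM overlap XPNPEP3 and WDR6 on their own, so part of their reads is uncertain.

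Further HIF targets were counted in a list outside glycolysis and a glycolytic list. Of 35 listed targets outside glycolysis, 33 were tested, 15 rose, 4 fell and 14 did not pass, with a median log2 fold change of 0.15, beside 17.5% higher and 23.5% lower over all genes. The largest rises were in EFNA1, STC2, LOX, PLOD2 and KDM3A. STC2, a secreted glycoprotein, rose from 115.7 ± 6.1 to 213.7 ± 7.4 RPM, and LOX, which crosslinks collagen, from 189.3 ± 0.92 to 320.0 ± 6.7 (SD, n = 3). PLOD2, a collagen lysyl hydroxylase, rose from 156.2 ± 9.4 to 248.4 ± 3.6 RPM, and KDM3A, a histone demethylase, from 32.8 ± 0.81 to 50.6 ± 2.4. Log2 fold changes of STC2, LOX, PLOD2 and KDM3A were 0.89, 0.76, 0.67 and 0.63 (largest limma adjusted p among them 8.8e-06). The ephrin ligand EFNA1 had a log2 fold change of 2.13 (limma adjusted p = 0.0034) on 2 to 21 reads per library. LOX overlaps SRFBP1 on the other strand, with 318 to 661 reads.

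Among those that fell, and named after their values were seen, were HMOX1, a haem-degrading enzyme, and the glycogen enzymes GYS1 and GBE1. Their log2 fold changes were -0.54, -0.25 and -0.20 (largest adjusted p in limma 0.015, for GBE1). GBE1 was not called without control replicate 3 or knockdown replicate 3. VEGFA, the angiogenic growth factor, named after its values were seen, was at 174.7 ± 7.7 RPM in controls and 174.6 ± 7.7 in knockdowns (log2 fold change 0.00; limma adjusted p = 0.993).

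**Figure D4:**
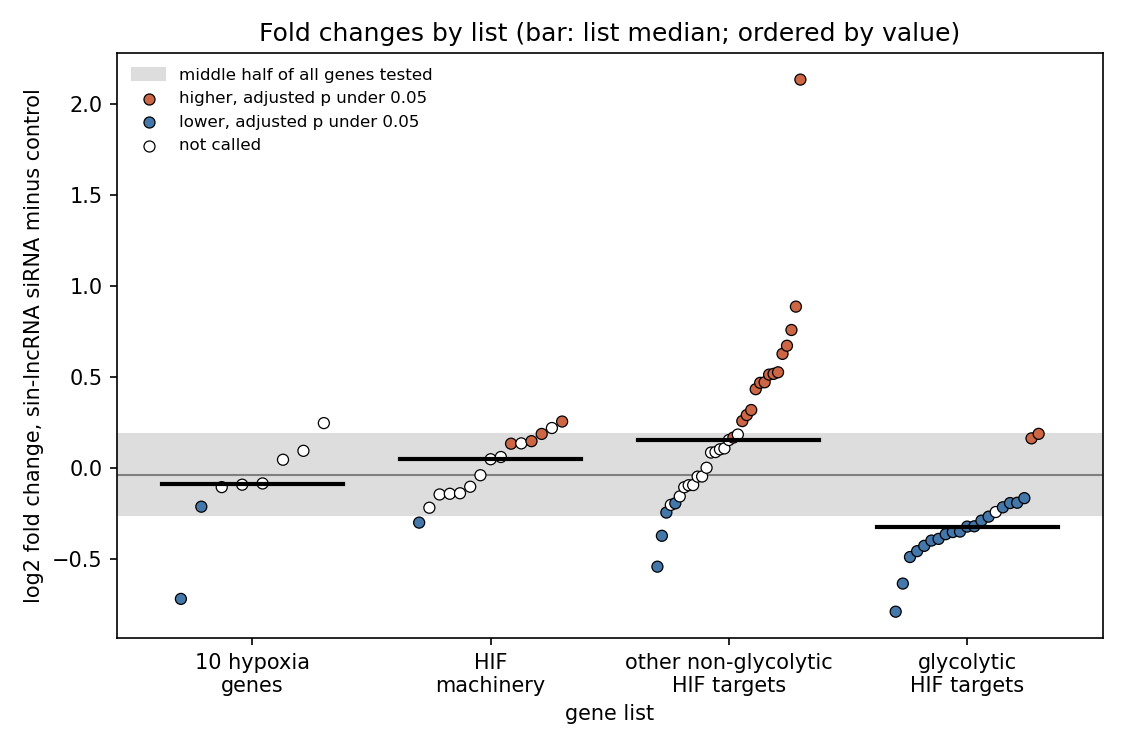
Log2 fold change of knockdown against control (y axis) for each tested gene of 4 lists (x axis), ordered by value within a list. The bar is the list median, the grey band the middle 50% of all genes tested, and colour marks genes called higher or lower; 15 other targets outside glycolysis are called higher, whereas 18 of 21 glycolytic targets are called lower.

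Most glycolytic HIF targets fell. Of 21 tested, 18 fell and 2 rose, with a median log2 fold change of -0.32, beside 23.5% lower and 17.5% higher over all genes. The difference between the lists was not tested. The largest falls were in PFKFB4 (log2 fold change -0.79), HK2 (-0.64), GPI (-0.49), ALDOC (-0.46) and GAPDH (-0.43), all enzymes of glycolysis or its control (largest limma adjusted p 0.00066, for ALDOC). Both rises, named after their values were seen, were in the glucose transporter SLC2A3 (0.16; limma adjusted p = 0.032) and in PFKFB3 (0.19; adjusted p in limma 0.0045), whose product stimulates glycolysis. SLC2A3 was not called without control replicate 1, control replicate 3, knockdown replicate 2 or knockdown replicate 3. SLC16A3, a lactate exporter, was the 1 gene not called (log2 fold change -0.24; limma adjusted p = 0.082), and it passed without control replicate 2 or knockdown replicate 2 (-0.35 in each). SLC16A3 overlaps the expressed gene CSNK1D on the other strand, with 3043 to 6735 reads per library, so part of its reads is uncertain. CA12 and BNIP3, outside glycolysis by function, had the log2 levels most alike to those of glycolytic genes among 77 pathway genes tested. Over the 6 libraries, Pearson's r was 0.99 for CA12 with ALDOC and 0.98 with SLC2A1, and 0.98 for BNIP3 with PFKP and 0.96 with PGAM1. CA12 and BNIP3 were compared because they were called, and both were lower. In the pool, 18 glycolytic genes were called lower, beside 4 of the other targets and 1 each of the HIF machinery, carbonic anhydrases and NDRG relatives. Glycolytic matches were thus likely from the start. These r describe libraries that share the group difference and the depth gap.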

How the data were processed

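PolyA RNA was sequenced in 6 libraries as single-end reads, per the labels' protocols. Bowtie2, featureCounts and hg19 are named in the submitters' processing notes; versions, annotation release and strand setting are not given in the sources used here. Bowtie2 does not splice reads, and whether a genome or transcripts were the target is not given either, so reads of genes with processed pseudogenes are uncertain. The authors deposited log2 CPM values with an offset of 0.5 reads. Undoing offset and scale gave whole reads (within 0.01) for 100% of values. RPM are these reads per 1000000 of the effective library size.

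limma 3.58.1 (R 4.3.3; lmFit, eBayes with trend, two-sided) was fitted to the deposited log2 values of the 19048 genes with a mean of at least 10 reads, and tested on simulated data. The changes put into the simulated data were larger in size than the fall of BNIP3, so they do not bear on calls that small. P-values were Benjamini-Hochberg adjusted over all genes tested, called under 0.05. Fold changes understate low genes. At 0, up to 3 reads (0.0596 to 0.134 RPM by library) are allowed, for counting error only. Replicates of a group differed by more than sampling noise (chi-square per degree of freedom 2.825 to 11.05 between pairs). Exon lengths came from GENCODE 29, by gene ID. No sequence was read by coordinates.

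Genes named were all 10 hypoxia genes, the HIF machinery list, and in each other list up to 5 called genes with the largest change; genes named beside small counts, BNIP3L, VEGFA, CALCRL and ADM2 were added. One listed target is counted but not reported by name here. The 10 genes and the lists were chosen with earlier results of these data known. Tried besides were 19 other fits (scaling, pseudocounts of 0.1, 1 and 5, filters, variance models, voom, thinning, libraries left out, replicate block), and 1 with pseudogene reads added, chosen after seeing the data.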

Additional observations from a re-analysis of the deposited data

How the results depend on the processing

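The fall of CA12 was called in each of 20 further fits (-0.78 to -0.58 on the log2 scale); HIF1A, EGLN1 and ADM were called in none of theirs, nor ANKRD37 in its 19, and no hypoxia gene changed direction. With a library left out, the number of the 8 called was 1 to 3. BNIP3 ran from -0.25 to -0.18, EPAS1 from 0.077 to 0.12; EPAS1 was called with trimmed-mean scaling (0.14) and NDRG1 after thinning (-0.13). At an adjusted p under 0.01, 1 gene of the 8 and 5195 of all genes were called. With a log2 fold change of at least 1 required beside an adjusted p under 0.05, 0 and 561 were called. Both stricter rules lower the counts by construction. With no fold change required, 4 of the 8 passed an unadjusted p under 0.05 in limma. All genes called numbered 5803 (without control replicate 3) to 7330 with a library left out.

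The HIF machinery count was 3 without a variance trend and 2 to 6 on leaving out a library. Without a filter, 5 carbonic anhydrases were called, but that fit takes in genes with few or no reads. CA8 and CA10, at 0 reads in all libraries, were in it. Their log2 values differ between libraries only through the offset and the library size. Which genes the added calls fell on is not given here, and these calls are not read as changed genes. The NDRG relatives called were 1 under trimmed-mean scaling, library totals, quantile normalization, thinning or no filter, 0 without a trend (limma; 2 at an unadjusted p under 0.05), and 0 to 1 when any library was dropped. For these counts, the cause was not tested. With a pseudocount of 5, changes of low genes shrank by construction: EFNA1 to 0.13, RAMP1 to 0.53, CA13 to 0.37 and CA11 to -0.37.

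The labels share replicate numbers between the groups, and whether these mark pairs is not given. Same-numbered deviations correlated at -0.15, -0.18 and 0.07, but with 3 libraries in a group this cannot show that the libraries were unpaired. A fit with a replicate block called 6454 genes, 2 of the 8 hypoxia genes, 2 machinery genes and 0 NDRG relatives (limma; 2 at an unadjusted p under 0.05).

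Genes that changed sign were called in no fit. RBX1 was 0.00086 and 0.0060 under trimmed-mean scaling and quantile normalization. VEGFA was 0.042, 0.019 and 0.018 under trimmed-mean scaling, library totals and thinning, and ADM2 -0.044 after thinning. Leaving out a library moved VEGFA between -0.034 and 0.035, ADM2 between -0.073 and 0.12, and EGLN2 between -0.0061 and 0.085. EGLN3, CA9 and ANKRD37 rested on few reads, 0 to 3, 3 to 11 and 24 to 53 per library.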

Other observations

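Of the listed HIF targets that modify collagen, LOX, PLOD2 and P4HA1 rose, whereas PLOD1 (539.2 ± 3.7 RPM in controls and 504.4 ± 15.5 in knockdowns; SD, n = 3; limma adjusted p = 0.070) and P4HA2 (133.7 ± 3.0 and 141.6 ± 3.6; limma adjusted p = 0.14) did not pass. These genes belong to families whose other members were examined after those values were seen, so the values here are a description with no test. LOXL2, a collagen crosslinker related to LOX, stood at 482, 457 and 464 RPM in controls and at 1037, 1165 and 1130 in knockdowns, far above in all 3. P4HA3, a collagen prolyl hydroxylase subunit, was at 5.14, 4.99 and 4.91 RPM in controls and 7.62, 7.30 and 7.41 in knockdowns. Its partner subunit P4HB was at 763.5 ± 4.4 RPM in controls and 834.6 ± 22.7 in knockdowns (SD, n = 3). Other members lay lower in knockdowns: LOXL4 at 82.4 ± 15.3 and 53.2 ± 0.92 RPM, LOXL3 at 9.02 ± 2.17 and 6.33 ± 0.71, and PLOD3 at 253.3 ± 11.3 and 225.2 ± 16.1. LOXL1 overlapped between the groups, at 63.2 ± 16.9 and 57.4 ± 6.5 RPM. Control and knockdown libraries did not overlap for 51.1% of all genes tested.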
